A study of Mus musculus with 2 samples.

Results

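Solute carrier (Slc) genes were followed through nuclei of mouse intestinal CD4+ effector T cells of 2 genotypes. The members are the gene rows named Slc, digits, a letter and digits, with at least 50 unique molecular identifiers (UMIs, each marking 1 captured RNA molecule) over all barcodes of both libraries. Of 362 gene rows with such a name among 32285 rows, 173 passed; Slc15a2 was left out beforehand. The nearest row below the minimum was Slc25a10 with 49 UMIs, and the nearest above it was Slc37a4 with 55. The minimum was passed by 11626 gene rows of any name.

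Nuclei came from CD4+CD44+CD62L- cells, sorted from pooled colon and small intestine after cells carrying CD8a, F4/80, CD11c or CD45R had been left out. Zfp362flox/flox animals gave the control library and CD4creZfp362flox/flox animals the knockout library, so both genotypes carry the floxed alleles of Zfp362, a zinc finger protein gene, and only the knockout carries Cre under Cd4 regulatory sequence. Mice were 26 to 33 weeks old, and 7 of them are named in the design, which leaves unsaid if that was the number per genotype. Each genotype was 1 pooled library of RNA and open chromatin from the same nuclei (10x Multiome, 5000 nuclei targeted), so no difference between genotypes has a replicate check and no p-value is given. Intervals are exact 95% intervals for counting error only.

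Slc genes encode membrane proteins that carry small molecules across the plasma membrane and across the membranes of mitochondria, lysosomes, endosomes and the Golgi. Lymphocytes take up neutral amino acids through Slc38, Slc1 and Slc7 family carriers, glucose through Slc2 carriers, and exchange lactate through Slc16 carriers. Slc7a5 works at the cell surface only together with Slc3a2, the CD98 heavy chain. The Slc25 carriers move metabolites and nucleotides across the inner mitochondrial membrane, and Slc30, Slc39 and Slc41 proteins move zinc and magnesium. Many Slc35 proteins carry nucleotide sugars into the Golgi.

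Nuclei with at least 1000 UMIs were put into 3 classes by their own UMIs, which are rules and not cell types. A Foxp3-positive nucleus held at least 1 UMI of Foxp3, the transcription factor gene of regulatory T cells. An other Cd3-positive nucleus held none of Foxp3 but at least 1 of Cd3d, Cd3e and Cd3g, and a Cd3-negative nucleus held none of these 4 genes. The control library gave 418, 2060 and 1554 nuclei of these classes and the knockout library 243, 1140 and 881. Median UMIs per nucleus were 2612, 2127.5 and 1891.5 in the control and 4499, 2791 and 2027 in the knockout. The libraries held 10803590 and 9348999 UMIs over 4223 and 2391 barcodes, of which 11 barcodes were shared.

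3 measured facts touch every comparison below. Nuclei with more than 4196 UMIs, which is 2 times the median, held 56.5% of the UMIs of the Foxp3-positive nuclei, 32.7% of the other Cd3-positive and 8.83% of the Cd3-negative nuclei in the control. In the knockout these shares were 87.2%, 62.9% and 19.9%. Cd3-negative nuclei held markers of innate lymphoid cells: a list of 9 such genes summed to 4114 and 4098 CPM (a gene's UMIs scaled to a class total of 1000000 UMIs) in the control and knockout libraries, against 1188 and 1335 in Foxp3-positive and 915 and 1357 in other Cd3-positive nuclei. The 13 genes of the T cell list summed to 3393 and 3497 CPM in Cd3-negative nuclei, with Cd3d, Cd3e and Cd3g at 0 by the rule, and to between 7160 and 7830 CPM in the other classes. Among nuclei with a Foxp3 or Cd3 UMI, 515 of 2478 (20.8%) in the control and 464 of 1383 (33.6%) in the knockout also held a UMI of Kit, Il1r1, Ncr1 or Arg1, and these nuclei held 35.8% and 60.0% of the UMIs.

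Other cell types were a small part. The B or plasma cell list summed to 849 and 739 CPM in Cd3-negative nuclei, of which Jchain gave 820 and 718, with Ms4a1 at 0. The myeloid or dendritic list summed to 558 and 565 CPM there, mostly from Zbtb46 at 414 and 403. The epithelial list stayed at or below 73.2 CPM in every class, and 12 transporters of the intestinal brush border had 126 UMIs in all, 58 of them from a single gene. Zfp362 itself was read at 10.8, 9.41 and 7.32 CPM in the control and 8.74, 6.63 and 3.30 CPM in the knockout; all 3 class values were lower in the knockout, every interval of the ratio reached 0, and reads of a gene with a deleted part still count to it.

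Upstream sequences are shown for 4 members whose open-chromatin peak at a start site differed between classes in both libraries and has a RefSeq promoter entry under it. Each is 250 bases before a start site (RefSeq, GRCm38.p6, plus strand), printed 5′ to 3′, with capitals marking matches on either strand to the GC box GGGCGG, the E-box CACGTG, the RUNX core TGTGGT or CCAAT. Slc35f5 (chr1:125560345-125560594) and the inner start of Slc41a3 (chr6:90618996-90619245) were more open in Cd3-negative nuclei. Slc16a1 (chr3:104638414-104638663) and Slc28a2 (chr2:122426185-122426434) were less open there.
Slc35f5: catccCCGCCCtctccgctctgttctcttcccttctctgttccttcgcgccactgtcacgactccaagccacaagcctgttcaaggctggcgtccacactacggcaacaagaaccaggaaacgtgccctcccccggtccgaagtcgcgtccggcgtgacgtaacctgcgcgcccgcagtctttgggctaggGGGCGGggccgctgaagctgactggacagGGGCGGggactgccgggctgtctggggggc
Slc41a3: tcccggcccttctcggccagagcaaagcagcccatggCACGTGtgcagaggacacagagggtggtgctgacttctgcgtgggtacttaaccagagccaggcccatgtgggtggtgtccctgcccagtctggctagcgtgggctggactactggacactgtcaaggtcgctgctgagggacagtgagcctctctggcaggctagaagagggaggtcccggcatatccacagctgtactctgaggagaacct
Slc16a1: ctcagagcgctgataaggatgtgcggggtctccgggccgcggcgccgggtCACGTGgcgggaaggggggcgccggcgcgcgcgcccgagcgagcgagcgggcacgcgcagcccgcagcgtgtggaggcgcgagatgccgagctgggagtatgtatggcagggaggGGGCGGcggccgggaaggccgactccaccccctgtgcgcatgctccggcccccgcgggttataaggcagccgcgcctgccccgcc
Slc28a2: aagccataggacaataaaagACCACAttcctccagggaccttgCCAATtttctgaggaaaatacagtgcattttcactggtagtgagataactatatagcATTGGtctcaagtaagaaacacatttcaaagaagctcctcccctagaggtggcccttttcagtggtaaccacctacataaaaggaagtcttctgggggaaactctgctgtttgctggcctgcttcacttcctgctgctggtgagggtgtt
Slc35f5 holds 3 GC boxes, Slc41a3 an E-box, Slc16a1 an E-box and a GC box, and Slc28a2 a RUNX core and 2 CCAAT matches. Over promoter windows of all genes, 32.7% held GGGCGG, 6.02% CACGTG, 14.0% TGTGGT and 33.8% CCAAT. Over the 171 windows of the 128 members with an entry these shares were 60.2%, 12.3%, 12.3% and 35.1%. The members had passed a minimum of UMIs and the windows of all genes had not. The 2 sets are therefore unlike, and the shares show no trait of solute carriers. A match describes the letters in a window and shows no binding.

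To ask which transporters mark a class, each class was set against the other 2 pooled, within each library. A member marked a class if its CPM was at least 1.5-fold higher in both libraries, among the 142 members with at least 100 UMIs. 17 members (12.0%) marked Cd3-negative nuclei, where 11.5% of all gene rows tested did. 3 members marked other Cd3-positive nuclei (2.4% of all gene rows) and 2 marked Foxp3-positive nuclei (1.7% of all gene rows). A count added after seeing the data gave 12 members at least 1.5-fold lower in Cd3-negative nuclei (9.26% of all gene rows). These shares were near those of all gene rows, and the median log2 ratio of Cd3-negative over the other classes was -0.02 for members and -0.06 for all gene rows tested. The differences described next are those of single carriers.

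**Figure D1:**
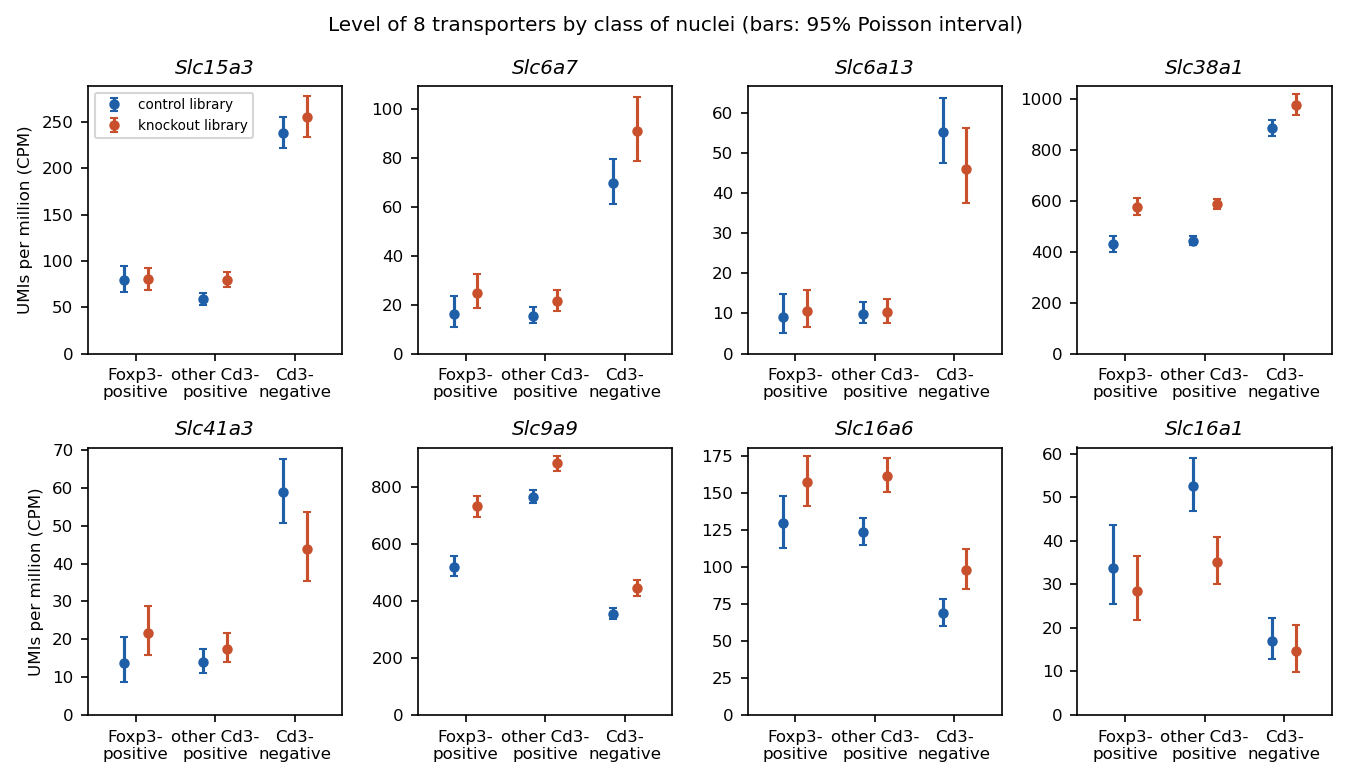
CPM (y axis, linear, from 0) of 8 members in the 3 classes of the control (blue) and knockout (red) libraries; points are class sums and bars the exact 95% Poisson interval. Slc15a3, Slc6a7, Slc6a13, Slc38a1 and Slc41a3 sat highest in Cd3-negative nuclei of both libraries, and Slc9a9, Slc16a6 and Slc16a1 sat lowest there.

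Both peptide carriers of the lysosome marked Cd3-negative nuclei. Slc15a3, which exports histidine and small peptides from endosomes and lysosomes, had 79.3, 58.6 and 238 CPM in Foxp3-positive, other Cd3-positive and Cd3-negative nuclei of the control and 80.0, 79.4 and 255 CPM in the knockout. Cd3-negative nuclei were the highest class in both libraries, by log2 ratios of 1.91 (1.75 to 2.08) and 1.68 (1.51 to 1.85) over the other classes. Slc15a4, its relative in the same membranes, had 18.6, 12.9 and 27.4 CPM in the control and 12.0, 12.5 and 23.1 CPM in the knockout, with ratios of 0.95 (0.53 to 1.37) and 0.91 (0.37 to 1.43).

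The largest ratios in the control belonged to 2 carriers of the Slc6 family, better known from brain and kidney. Slc6a13, a GABA and taurine carrier, had 9.02, 9.94 and 55.2 CPM in the control and 10.6, 10.3 and 46.1 CPM in the knockout. Its log2 ratio in Cd3-negative nuclei was 2.50 (2.10 to 2.92) and 2.15 (1.71 to 2.61). Slc6a7, a proline carrier, had 16.2, 15.3 and 69.8 CPM in the control and 24.8, 21.3 and 90.9 CPM in the knockout, with ratios of 2.16 (1.84 to 2.50) and 2.02 (1.71 to 2.33). For both genes the 2 Cd3 or Foxp3 classes lay close together and the Cd3-negative class stood apart.

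Carriers were grouped by family, with the Slc6 family split. Slc6a6 was counted with the amino acid carriers, and Slc6a7 and Slc6a13 with the neurotransmitter carriers. Among the 14 tested members of the amino acid group so defined, 2 marked Cd3-negative nuclei and 1 marked other Cd3-positive nuclei. None was lower in Cd3-negative nuclei by the rule. Over all gene rows these shares were 11.5%, 2.4% and 9.26%. Slc38a1, a sodium-coupled glutamine carrier, was the marker with most reads, at 429, 443 and 886 CPM in the control and 578, 587 and 977 CPM in the knockout. Its ratios were 1.01 (0.94 to 1.08) and 0.74 (0.67 to 0.82). Slc38a6, a member of the same family, had ratios of 0.68 (0.31 to 1.03) and 0.93 (0.54 to 1.31). Slc38a2, the stress-induced carrier of the family, differed far less, at 0.20 and 0.21.

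3 of 22 tested metal carriers marked Cd3-negative nuclei and none was lower there. Over all gene rows 11.5% marked the class and 9.26% were lower in it. Slc41a3, a magnesium carrier, had 13.8, 14.1 and 58.8 CPM in the control and 21.6, 17.5 and 43.8 CPM in the knockout, with ratios of 2.06 (1.71 to 2.42) and 1.23 (0.83 to 1.62). Its relative Slc41a1 had smaller ratios of 0.66 (0.47 to 0.86) and 0.81 (0.56 to 1.05). Slc30a9, a zinc carrier, had 0.70 (0.45 to 0.94) and 0.94 (0.66 to 1.21). All 3 were higher in the Cd3-negative class than in either other class of both libraries.

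Other markers of Cd3-negative nuclei had fewer reads. Slc2a6, a lysosomal member of the glucose carrier family, had 12.0, 5.40 and 30.2 CPM in the control and 8.74, 10.9 and 25.0 CPM in the knockout, with ratios of 2.12 (1.63 to 2.65) and 1.29 (0.75 to 1.82). The choline carrier Slc44a1 had ratios of 0.78 (0.32 to 1.23) and 1.02 (0.50 to 1.52). The mitochondrial carriers Slc25a23 (ATP-magnesium and phosphate) and Slc25a33 (pyrimidine nucleotides) had ratios of 1.69 and 1.80, and of 0.65 and 1.05. Slc22a21, a carnitine carrier, had 1.48 and 1.92, and Slc35f5, a carrier of unassigned substrate, had 1.72 and 2.14. For these 4 genes 26, 54, 31 and 44 UMIs lay in Cd3-negative nuclei of the control. Slc27a1, a fatty acid carrier, had 1.27 and 0.70, and its interval in the knockout reached 0 (-0.12 to 1.45).

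**Figure D2:**
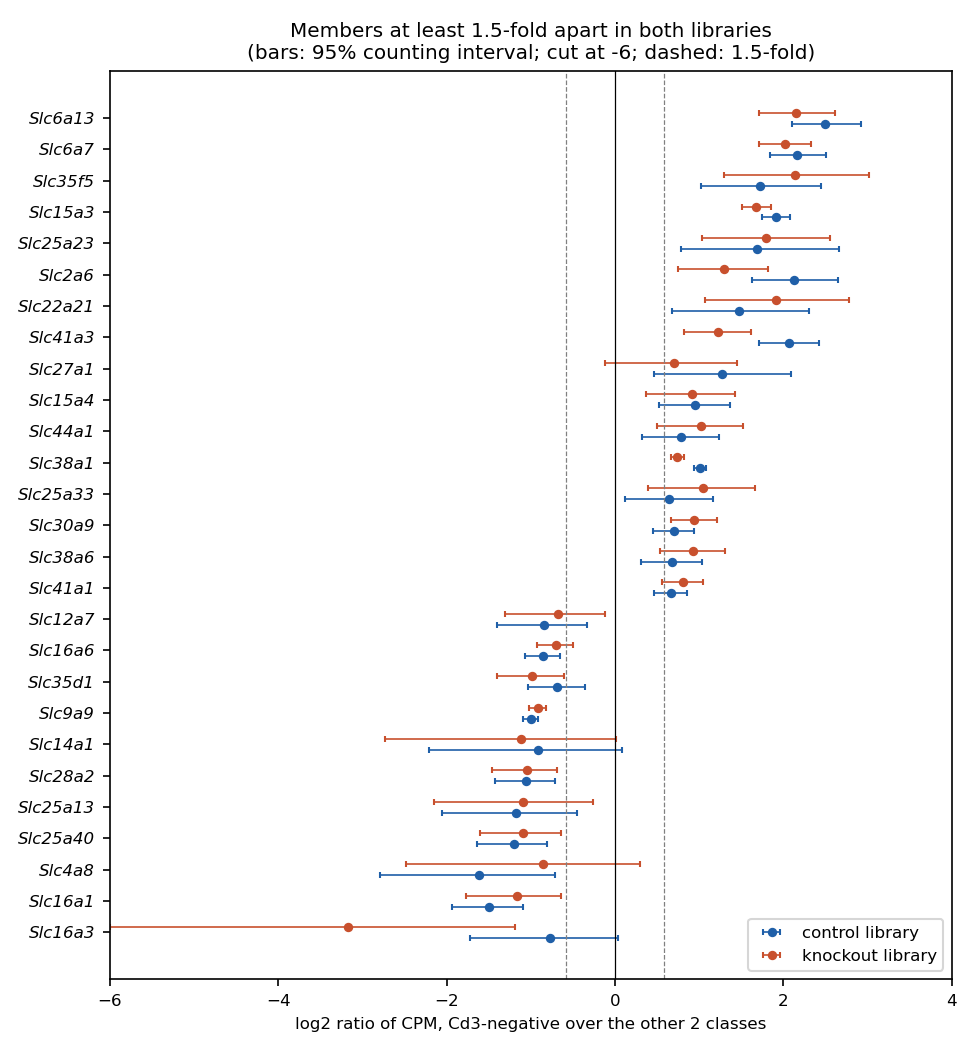
Log2 ratio of CPM in Cd3-negative nuclei over the other 2 classes for members that marked the class (above) and members that were low in it (below); points are the control and knockout libraries and bars the exact 95% counting interval, drawn down to -6; dashed lines mark 1.5-fold. Ratios run from 2.50 for Slc6a13 in the control to -3.17 for Slc16a3 in the knockout, which rests on 1 UMI in Cd3-negative nuclei.

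Reads of several markers in the other classes lay mostly in nuclei that also held an innate lymphoid marker UMI. Of the Slc6a7 UMIs found in Foxp3-positive or other Cd3-positive nuclei, 112 of 115 (97.4%) in the control and 156 of 160 (97.5%) in the knockout lay in such nuclei. The shares were 88.9% and 89.2% for Slc6a13, 76.9% and 85.6% for Slc15a3, and 71.2% and 88.8% for Slc41a3. Of all UMIs of these classes, 35.8% and 60.0% lay there. For members low in Cd3-negative nuclei the shares were near or below those of all UMIs, with 29.9% and 58.3% for Slc9a9 and 24.3% and 57.9% for Slc28a2. These nuclei also had more UMIs, with medians of 3985 and 6205 against 2021 and 2314 in the rest, and whether they are doublets of nuclei was not tested. Without them the ratios were larger, at 6.57 and 5.86 for Slc6a7, 4.95 and 3.97 for Slc6a13, 3.38 and 3.15 for Slc15a3, and 1.42 and 1.16 for Slc38a1.

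Members lower in Cd3-negative nuclei were led in reads by Slc9a9, a sodium-proton exchanger of endosomes. It had 522, 768 and 356 CPM in the control and 733, 885 and 445 CPM in the knockout. Other Cd3-positive nuclei were the highest class and Cd3-negative nuclei the lowest in both libraries, with ratios of -1.001 (-1.09 to -0.91) and -0.91 (-1.02 to -0.82) for Cd3-negative nuclei. Slc16a6, a carrier of ketone bodies, had 130, 124 and 69.2 CPM in the control and 158, 162 and 98.4 CPM in the knockout, with ratios of -0.86 (-1.07 to -0.65) and -0.71 (-0.93 to -0.49). Of the 5 tested monocarboxylate carriers, 1 marked Cd3-negative nuclei and 3 were lower there by the rule: Slc16a6, Slc16a1 and Slc16a3. Over all gene rows 11.5% marked that class and 9.26% were lower in it. Slc16a10, of the same family, was highest in Cd3-negative nuclei without marking them. It had 92.0, 152 and 255 CPM in the control and 179, 235 and 253 CPM in the knockout.

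Lactate carriers were low in Cd3-negative nuclei. Slc16a1 had 33.7, 52.7 and 17.1 CPM in the control and 28.5, 35.2 and 14.6 CPM in the knockout, with ratios of -1.49 (-1.94 to -1.09) and -1.16 (-1.77 to -0.64). Slc16a3, the lactate exporter of glycolytic cells, had 15 UMIs in Cd3-negative nuclei of the control and 1 in the knockout, against 59 and 45 in the other classes. Its control ratio of -0.77 had an interval reaching 0 (-1.73 to 0.03), and its knockout ratio was -3.17 (-9.08 to -1.19).

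Slc28a2, a carrier of purine nucleosides, had 48.1, 52.7 and 24.7 CPM in the control and 56.6, 68.4 and 31.1 CPM in the knockout, with ratios of -1.06 (-1.43 to -0.71) and -1.05 (-1.45 to -0.69) in Cd3-negative nuclei. Mitochondrial carriers that were also lower there, named after their values were seen, were Slc25a40 (glutathione; -1.20 and -1.09) and Slc25a13 (aspartate and glutamate; -1.18 and -1.09). Slc35d1, a carrier of UDP-sugars, had -0.68 and -0.98, and Slc12a7, a potassium-chloride cotransporter, had -0.84 and -0.67. Slc14a1, a urea carrier, and Slc4a8, a bicarbonate carrier, had intervals that reached 0 in at least 1 library.

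Few members marked the classes with a Foxp3 or Cd3 UMI. Other Cd3-positive nuclei were marked by Slc16a1, with ratios over the other classes of 1.21 (0.90 to 1.54) and 0.70 (0.33 to 1.08), and by Slc28a2, with 0.69 (0.41 to 0.98) and 0.64 (0.38 to 0.90). Slc36a1, a lysosomal carrier of small amino acids, had 0.98 (0.19 to 1.86) and 0.61 (-0.22 to 1.52). Foxp3-positive nuclei were marked by Slc35d2, a Golgi carrier of nucleotide sugars, from 22 and 18 UMIs, with ratios of 1.63 (0.79 to 2.40) and 0.65 (-0.27 to 1.47). Slc4a8 came from 24 and 15 UMIs with 1.18 (0.41 to 1.87) and 0.73 (-0.29 to 1.65). Both knockout intervals reached 0, and with Foxp3-positive nuclei defined by 2 Foxp3 UMIs the knockout ratios were -0.056 for Slc35d2 and -0.37 for Slc4a8. Without nuclei above 4196 UMIs, 110 members were tested: 19 marked Cd3-negative nuclei (12.4% of all gene rows), 11 other Cd3-positive nuclei (7.0%), 1 Foxp3-positive nuclei (5.66%), and 12 were low in Cd3-negative nuclei (11.3%).

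Foxp3-positive and other Cd3-positive nuclei were also compared directly. At 1.5-fold in both libraries, 0 of 125 tested members were higher and 0 lower in Foxp3-positive nuclei, where 1.19% and 0.853% of all gene rows were. With the smaller condition that both intervals stay off 0, a comparison chosen after seeing the data, 5 members were lower and 1 higher, against 3.44% and 4.16% of all gene rows. Slc16a10, a carrier of aromatic amino acids, had log2 ratios of -0.72 (-0.98 to -0.47) in the control and -0.39 (-0.56 to -0.22) in the knockout. Slc9a9 had -0.56 and -0.27, Slc3a2 had -0.44 and -0.31, Slc20a1, a phosphate carrier, had -0.47 and -0.25, and Slc38a2 had -0.17 and -0.19. Slc5a3, a myo-inositol carrier, was higher at 0.35 and 0.28; it overlaps Mrps6 and Gm49711 on the same strand, so its reads are uncertain. Without nuclei above 4196 UMIs the Slc16a10 ratios were -1.72 (-2.29 to -1.23) and -2.56 (-3.63 to -1.77). Only 18 Foxp3-positive nuclei of the control and 4 of the knockout then held a Slc16a10 UMI. The Slc9a9 ratios were -0.98 and -0.999 without nuclei above 4196 UMIs, while the intervals of Slc20a1 and Slc5a3 in the knockout reached 0.

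Open chromatin of the same nuclei gave a readout that the RNA rule did not use. Fragments in peaks present in both libraries were summed over each gene body and 2 kb upstream (mm10), and the classes were compared as for RNA. Of the 17 members that marked Cd3-negative nuclei by RNA, 14 had peak ratios above 0 in both libraries and 0 had ratios below 0 in both, with medians of 0.37 and 0.38. Of the 12 low members, 11 had ratios below 0 in both libraries, with medians of -0.35 and -0.57. Past 1.5-fold in both libraries were 5 of the 17 on the higher side and 4 of the 12 on the lower side; 5 and 1 of the other 139 members with peaks were past it. Of those 139, 46 had ratios above 0 and 66 below 0 in both libraries, and of 51201 peak regions 18589 were above and 22409 below. Of these regions, which held at least 100 fragments each, 15.8% were higher and 13.4% lower in Cd3-negative nuclei by the same fold. These are single regions, whereas a member is the sum over its regions, so the shares are not of the same unit.

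Slc6a13 (chr6:121300227-121337733, plus strand) had the largest peak ratio of the 17 in the control. Its raw peak counts, before they were turned into fragments, were at 6.97, 11.7 and 54.6 CPM in the 3 control classes. In those of the knockout they were at 16.4, 13.8 and 53.8 CPM. The Slc6a13 log2 ratio of fragments in Cd3-negative nuclei was 2.32 (2.01 to 2.65) and 1.90 (1.63 to 2.18), and that of Slc6a7 was 2.28 and 1.90. The start-site peak of Slc35f5 (chr1:125560187-125561111), which covers the printed sequence, had ratios of 1.21 (1.04 to 1.39) and 1.10 (0.93 to 1.27). For Slc41a3 (chr6:90604725-90646412, plus strand) the peaks differed along the gene. Its peak at the main start site (chr6:90604346-90605292) had ratios of 0.14 (-0.11 to 0.39) and 0.30 (0.05 to 0.54), whereas the peak at the inner start site (chr6:90618813-90619731) had 1.67 (1.18 to 2.17) and 1.43 (0.99 to 1.87). An intron peak between them (chr6:90613053-90614026) had 2.17 (1.85 to 2.51) and 1.85 (1.56 to 2.13).

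Slc15a3 (chr19:10839727-10859362, plus strand) had opposite ratios at neighbouring peaks. The peak just upstream (chr19:10838855-10839692) had -0.39 (-0.72 to -0.08) and -0.43 (-0.79 to -0.09) in Cd3-negative nuclei, and an intron peak (chr19:10841489-10842308) had 1.19 (0.92 to 1.46) and 1.26 (0.97 to 1.54). Slc38a1 (chr15:96571418-96642913, minus strand), the marker with most reads, showed no gap in its summed peaks, with 0.07 (-0.04 to 0.18) and -0.06 (-0.18 to 0.05).

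Among the low members, the start-site peak of Slc28a2 (chr2:122425922-122426842) had ratios of -1.61 (-2.97 to -0.60) and -1.37 (-2.63 to -0.43). Its raw peak count in Cd3-negative nuclei of the control was 16, before counts were turned into fragments. The start-site peak of Slc16a1 (chr3:104638247-104639092) had -0.42 (-0.72 to -0.13) and -0.72 (-1.06 to -0.40). Slc9a9 (chr9:94669909-95230445, plus strand), summed over 24 peaks, had -0.63 (-0.77 to -0.50) and -0.70 (-0.84 to -0.56), and Slc16a6 (chr11:109450855-109473598, minus strand) had -0.62 and -0.61. For these genes RNA and peaks differed between classes in the same direction in both libraries.

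**Figure D3:**
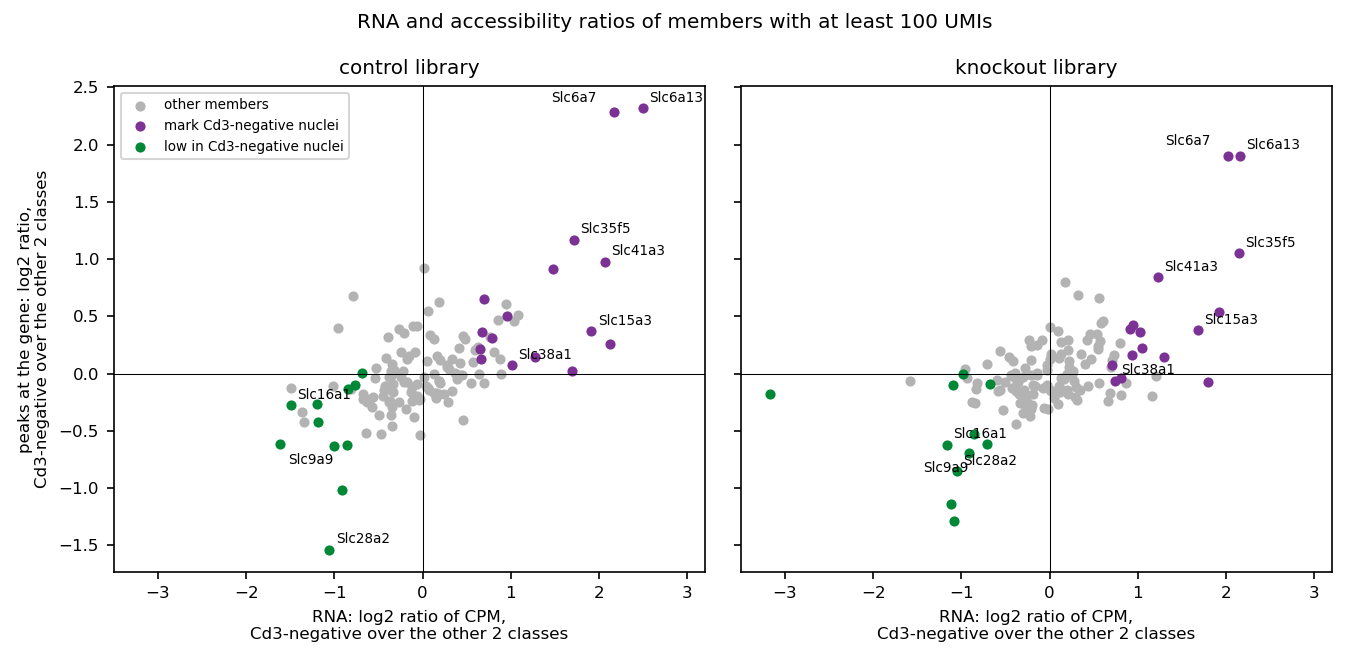
Log2 ratio of Cd3-negative nuclei over the other classes in RNA (x axis) and in summed peaks at the gene (y axis), for reported members with at least 100 UMIs, with 1 panel per library. The members that marked the class by RNA mostly lie in the upper right and the low members in the lower left; Slc38a1 lies near 0 on the peak axis (0.07 in the control and -0.06 in the knockout).

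The libraries were then compared within each class, as CPM in the knockout over CPM in the control, for members with at least 100 UMIs of the class. Slc16a10 and Slc2a3 were at least 1.5-fold higher in the knockout in Foxp3-positive and in other Cd3-positive nuclei. In Foxp3-positive nuclei 2 of 55 members were higher (4.25% of all gene rows) and 1 was lower (5.21%). In other Cd3-positive nuclei 3 of 106 were higher (1.74%) and 3 lower (2.38%), and in Cd3-negative nuclei 0 of 76 were higher (1.82%) and 2 lower (1.95%). Numbers so close to those of all gene rows are no result about the set, and the named carriers are given as measurements of 2 libraries.

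Slc16a10 was read at 92.0 CPM in Foxp3-positive nuclei of the control and 179 CPM in those of the knockout, a log2 ratio of 0.96 (0.69 to 1.24). In other Cd3-positive nuclei it was at 152 and 235 CPM, a ratio of 0.63 (0.50 to 0.76), and in Cd3-negative nuclei at 255 and 253 CPM, a ratio of -0.01 (-0.17 to 0.14). The knockout was higher in both classes that hold a Foxp3 or Cd3 UMI. Of the Slc16a10 UMIs in Foxp3-positive nuclei, 114 of 153 (control) and 330 of 389 (knockout) lay in nuclei with an innate lymphoid marker UMI. In other Cd3-positive nuclei 316 of 869 and 642 of 1167 did. Of all UMIs of both classes, 35.8% and 60.0% did. What these nuclei add to the ratios was not tested. In Foxp3-positive nuclei 97.2% of the knockout and 78.4% of the control Slc16a10 UMIs lay in nuclei above 4196 UMIs. Without nuclei above 4196 UMIs the Slc16a10 ratio was -0.16 (-1.34 to 0.82) there and 0.68 (0.50 to 0.86) in other Cd3-positive nuclei. Its summed peaks differed little between libraries, with ratios of 0.26, -0.02 and 0.09 in the 3 classes.

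Slc2a3, a high-affinity glucose carrier, was at 27.0 and 47.8 CPM in Foxp3-positive nuclei, a ratio of 0.81 (0.30 to 1.36). In other Cd3-positive nuclei it was at 37.5 and 57.1 CPM, a ratio of 0.61 (0.35 to 0.87), and in Cd3-negative nuclei at 30.2 and 28.2 CPM, a ratio of -0.09 (-0.58 to 0.38). Without nuclei above 4196 UMIs these ratios were 1.82 (0.92 to 2.77), 1.00 (0.66 to 1.35) and -0.02 (-0.54 to 0.48). The Slc2a3 ratio was larger without the nuclei of high UMI count in Foxp3-positive and in other Cd3-positive nuclei, but the intervals overlapped in both classes. Only 16 Foxp3-positive nuclei of the control and 13 of the knockout then held a Slc2a3 UMI. There Slc2a3 was below the minimum of UMIs for a tested member. Slc2a1, the other main glucose carrier of T cells, had ratios of -0.046 (-0.47 to 0.38), -0.030 (-0.27 to 0.21) and 0.0032 (-0.43 to 0.42) with all nuclei. The Slc2a1 ratios without nuclei above 4196 UMIs were 0.71 (-0.24 to 1.59), 0.055 (-0.28 to 0.38) and -0.014 (-0.48 to 0.44). Whether the carriers differ was not tested. Of the Slc2a3 UMIs in Foxp3-positive nuclei, 18 of 45 (control) and 75 of 104 (knockout) lay in nuclei with an innate lymphoid marker UMI. In other Cd3-positive nuclei 54 of 215 and 117 of 284 did. Peaks at Slc2a3 had ratios of -0.06, 0.10 and 0.11.

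Other ratios past 1.5-fold had fewer reads or changed without the nuclei of high UMI count. Slc35f2 was higher in other Cd3-positive nuclei of the knockout, at 8.72 and 16.1 CPM, with a ratio of 0.88 (0.36 to 1.42) that was 0.52 (-0.42 to 1.40) without these nuclei. Slc12a2, a sodium-potassium-chloride cotransporter, was lower there, at 47.2 and 30.2 CPM, with -0.65 (-0.95 to -0.35) against -0.11 (-0.54 to 0.30) without them. Slc26a11, an anion exchanger, was at 15.0 and 8.04 CPM with -0.89 (-1.48 to -0.34), and Slc25a11, the mitochondrial oxoglutarate carrier, was at 17.8 and 9.85 CPM with -0.84 (-1.37 to -0.35). Without these nuclei they had -0.92 and -0.60.

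In Cd3-negative nuclei Slc25a24, a mitochondrial ATP-magnesium and phosphate carrier, was at 39.6 and 20.7 CPM in control and knockout, a ratio of -0.93 (-1.46 to -0.43), and -0.80 (-1.38 to -0.27) without nuclei of high UMI count. Slc39a6, a zinc carrier, was at 22.3 and 14.6 CPM there, with a ratio of -0.60 whose interval reached 0 (-1.26 to 0.02). Slc50a1, a sugar carrier, was lower in Foxp3-positive nuclei of the knockout, at 39.7 and 26.2 CPM with a ratio of -0.60 (-1.14 to -0.06). That ratio was 0.00 (-1.13 to 0.96) without the nuclei of high UMI count, and -0.56, under 1.5-fold, with TMM scaling. Counted anew without these nuclei, 0 of 13 members were higher and 0 lower in Foxp3-positive nuclei (3.0% and 5.2% of all gene rows), 3 of 75 higher and 1 lower in other Cd3-positive nuclei (2.09% and 2.35%), and 1 of 65 higher and 1 lower in Cd3-negative nuclei (1.59% and 2.48%).

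Amino acid carriers, as grouped by family, were mostly a little higher in the knockout, each by less than 1.5-fold. Slc16a10, Slc6a7 and Slc6a13 were counted in other groups and are not part of this one. Ratios were above 0 for 8 of 10 tested in Foxp3-positive, 12 of 13 in other Cd3-positive and 10 of 11 in Cd3-negative nuclei, with medians of 0.16, 0.15 and 0.24. All gene rows tested had medians of 0.00, 0.00 and -0.02, and 50.6%, 49.2% and 46.9% of them were above 0. The lists were named with results of these data known, so the counts are a description. Slc7a1, a carrier of arginine and lysine, was at 242, 245 and 278 CPM in the 3 control classes and 303, 322 and 346 CPM in the knockout, with ratios of 0.32 (0.14 to 0.51), 0.39 (0.29 to 0.50) and 0.31 (0.17 to 0.46). Slc7a5 and its partner Slc3a2 had 0.18, 0.34 and 0.53, and 0.28, 0.15 and 0.24. Slc1a5, a glutamine carrier, had 0.14, 0.21 and 0.39. Against this direction, the taurine carrier Slc6a6 was lower in Cd3-negative nuclei of the knockout, at 64.3 and 43.8 CPM with -0.55 (-0.92 to -0.20). The others below 0 had intervals that reach 0: Slc36a4 in other Cd3-positive nuclei at -0.47 (-1.01 to 0.055), and Slc43a2 and Slc6a6 in Foxp3-positive nuclei at -0.39 (-0.89 to 0.11) and -0.012 (-0.38 to 0.36). Without nuclei above 4196 UMIs 4 of 5, 12 of 12 and 10 of 11 ratios were above 0, with medians of 0.07, 0.17 and 0.34. Fewer members then reached the minimum of UMIs, so these counts are not of the same members. Slc36a4 was left out in other Cd3-positive nuclei and still had -0.25. Of those left out in Foxp3-positive nuclei, Slc43a2 and Slc38a10 had -0.11 and -0.31. The others left out there, Slc38a9, Slc6a6 and Slc7a5, had 0.41, 0.29 and 0.09.

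**Figure D4:**
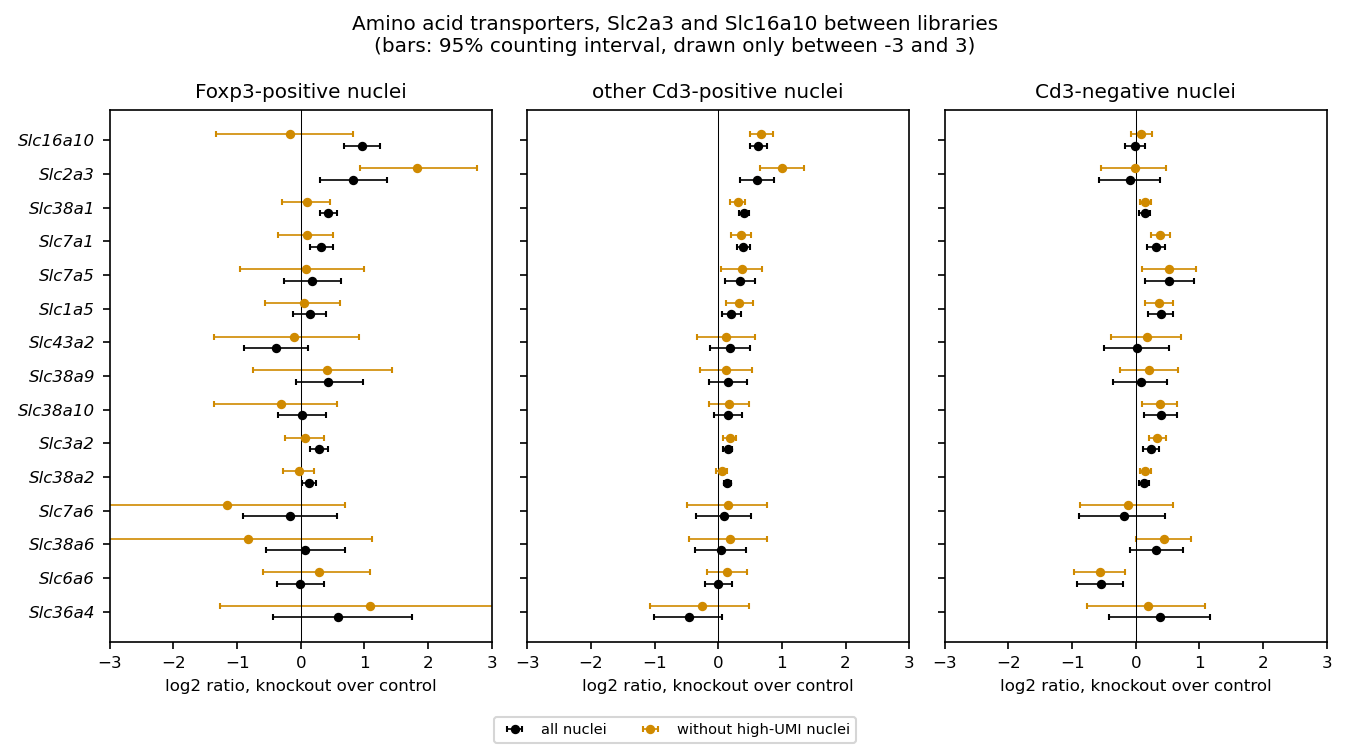
Log2 ratio of CPM in the knockout over the control for the amino acid carriers, Slc2a3 and Slc16a10, with 1 panel per class; black points use all nuclei, orange points leave out nuclei above 4196 UMIs, and bars are exact 95% counting intervals, drawn only between -3 and 3. Slc2a3 stays above 0 in the Foxp3-positive and other Cd3-positive panels in both colours, and Slc16a10 in Foxp3-positive nuclei moves from 0.96 to -0.16.

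The other groups are given by their medians in the 3 classes, again as a description. The sodium-proton and sodium-calcium exchangers had 0.22, 0.26 and 0.24, with 4 of 5, 5 of 6 and 4 of 5 above 0. The 34 mitochondrial and peroxisomal carriers had medians of 0.00, 0.00 and 0.06 over the 9, 23 and 14 tested. Among them Slc25a5, an ADP-ATP exchanger, was lower in all 3 classes of the knockout, at -0.32 (-0.60 to -0.04), -0.40 (-0.55 to -0.24) and -0.35 (-0.62 to -0.09). Thinned to 1000 UMIs per nucleus its ratio in Foxp3-positive nuclei had the opposite sign, at 0.24. Slc25a3, the phosphate carrier with most reads of all members (19037 UMIs), had 0.00, 0.12 and 0.10. The 20 Slc35 members had medians of 0.10, 0.26 and 0.22 over 6, 11 and 8 tested, with 4, 10 and 6 above 0. They were grouped by family as nucleotide sugar carriers, though not all, such as Slc35f5, have that substrate assigned. Metal carriers had medians of -0.01, -0.04 and 0.14. Slc9a9 was higher in all 3 classes of the knockout, at 0.49, 0.20 and 0.32, as was Slc16a6, at 0.28, 0.38 and 0.51. Without nuclei above 4196 UMIs their ratios in Foxp3-positive nuclei were 0.12 and 0.025.

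Of 26 partner genes fixed with the members (carrier chaperones, pumps, glycolysis and nutrient-sensing genes), 25 were tested. Of these, 4 marked Cd3-negative, 1 other Cd3-positive and 1 Foxp3-positive nuclei, where 11.5%, 2.4% and 1.7% of all gene rows did. Hk2, a hexokinase, had 256, 287 and 853 CPM in the control and 285, 375 and 878 CPM in the knockout and marked Cd3-negative nuclei with ratios of 1.61 and 1.34, as did Sesn1, Abca1 and Atp1b1. Abcb1b, an efflux pump, marked other Cd3-positive nuclei at 0.67 and 0.63, and Rragd, a GTPase of amino acid sensing, marked Foxp3-positive nuclei at 0.78 and 0.95. Between libraries, 2 of 21 were higher (Abcb1b and Mtor) and 2 lower (Txnip and Abcg1) in Foxp3-positive nuclei, where 4.25% and 5.21% of all gene rows were. In other Cd3-positive nuclei 0 of 22 passed either way (1.74% and 2.38% of all gene rows). In Cd3-negative nuclei 1 of 22 (Abca1) was higher (1.82%). These partner values use all nuclei, and nuclei above 4196 UMIs held 87.2% of the UMIs of Foxp3-positive nuclei in the knockout.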

How the data were processed

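Both libraries hold RNA and peak data of the same nuclei. The authors deposited raw UMI counts per gene and raw counts per peak in 1 matrix per library, on mm10 per the submitters' processing notes; per the file headers the program was Cell Ranger ARC 2.0.1, and peaks were called in each library separately (83851 and 85738). The sources used here do not give aligner settings or the treatment of doublets.

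Kept were barcodes with 500 UMIs or more, 300 genes or more and a mitochondrial share of 10% or less (4176 and 2346). Classes used nuclei with at least 1000 of these UMIs, which left out 144 and 82. Counts were summed per class and library and scaled to CPM; log2 ratios used a pseudocount of 0.5 UMI and the exact conditional 95% interval of 2 counts, which covers counting error only. Cells are not replicates, so nothing was tested. No doublet caller was run; nuclei above 2 times the median of 2098 UMIs were left out as an alternative. Peak counts were turned into fragments as count / 2, rounded up, since 91.7% and 90.7% of the values were even, and peaks overlapping by at least 1 base in both libraries (87.7% and 85.8%) were used, with genes from GENCODE vM21. TMM factors came from edgeR 4.0.16 in R 4.3.3; the rest used Python 3.11.15, numpy 2.4.6, scipy 1.17.1 and pandas 2.3.3. The ratio and interval code was tested on simulated data.

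Named genes are members that mark a class, the members with the highest and lowest library ratios (10 and 10 in other Cd3-positive and Cd3-negative nuclei, 5 and 5 in Foxp3-positive nuclei), the 3 with most UMIs in each of 16 functional groups, and fixed partner lists; members low in Cd3-negative nuclei, and those that differed between Foxp3-positive and other Cd3-positive nuclei, were named after their values were seen. Members and lists were chosen with earlier results of these data known. Counts cover all members, but a few of them are not reported here by name or drawn.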

Additional observations from a re-analysis of the deposited data

Results flagged for a closer look

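Slc50a1 had library ratios of opposite sign in 2 classes. In Foxp3-positive nuclei the log2 ratio of knockout over control was -0.60 (-1.14 to -0.06) and in Cd3-negative nuclei it was 0.45 (0.00 to 0.89), so the intervals lay on either side of 0. Without nuclei of high UMI count the values were 0.00 and 0.37. The difference between the classes was not tested.

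Slc4a7, a sodium-bicarbonate cotransporter, had a ratio of 0.17 (0.08 to 0.27) in other Cd3-positive nuclei and -0.21 (-0.37 to -0.05) in Cd3-negative nuclei. Its levels were 307 and 346 CPM in the former and 270 and 233 CPM in the latter, in control and knockout. Without nuclei of high UMI count the ratios were 0.12 and -0.22. This difference was not tested either.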

How the results depend on the processing

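Counts of members that marked Foxp3-positive, other Cd3-positive and Cd3-negative nuclei, and of members low in Cd3-negative nuclei, were 2, 3, 17 and 12. They were 0, 0, 9 and 5 at a fold of 2, 4, 5, 23 and 15 from 50 UMIs, 0, 2, 13 and 9 from 200 UMIs, and 2, 3, 19 and 12 with all kept nuclei. With nuclei of at least 2000 UMIs they were 0, 0, 16 and 11, thinned to 1000 UMIs per nucleus 0, 8, 12 and 7, and without high-UMI nuclei 1, 11, 19 and 12. They were 2, 4, 26 and 28 with Cd3-negative nuclei also free of Trac, Cd5, Cd6, Themis and Cd28, 2, 5, 17 and 9 with Foxp3-positive nuclei from 2 UMIs, and 3, 12, 23 and 11 without Foxp3 or Cd3 nuclei holding innate lymphoid marker UMIs. Of the 17 Cd3-negative markers, those still tested that marked the class again were 9 of 17 at a fold of 2, 11 of 13 with nuclei of at least 2000 UMIs, 9 of 11 thinned and 13 of 13 without high-UMI nuclei.

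Library counts higher and lower in the knockout were 2 and 1 (Foxp3-positive), 3 and 3 (other Cd3-positive) and 0 and 2 (Cd3-negative). They were 0 and 0, 0 and 0, and 0 and 0 at a fold of 2, 6 and 4, 9 and 10, and 3 and 4 from 50 UMIs, and 1 and 0, 2 and 1, and 0 and 0 from 200 UMIs. TMM scaling, which shifted ratios by -0.04, 0.01 and 0.03, gave 2 and 0, 3 and 4, and 0 and 2; centring on the median gene gave 2 and 1, 3 and 3, and 0 and 1; a pseudocount of 5 gave 2 and 0, 3 and 3, and 0 and 1. Thinning gave 1 and 0, 3 and 1, and 2 and 1, and leaving out high-UMI nuclei 0 and 0, 3 and 1, and 1 and 1. Fewer members were tested when thinned (8, 52 and 34) and without high-UMI nuclei (13, 75 and 65). Peaks shared by 50% of each gave 10 members higher and 4 lower in Cd3-negative nuclei, against 10 and 5.

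Over named members, 217 of 308 class ratios and 946 of 1026 library ratios moved by less than their interval under the alternatives. The library total includes TMM scaling, median centring, a larger pseudocount and all kept nuclei. Under these settings every library ratio moved by less than its interval. With thinning, 30 of 45 did so in Foxp3-positive, 45 of 67 in other Cd3-positive and 51 of 59 in Cd3-negative nuclei. Without high-UMI nuclei these numbers were 21 of 45, 57 of 67 and 58 of 59. In all, 2 class and 82 library ratios changed sign, 37 of the latter in Foxp3-positive nuclei. Among ratios past 1.5-fold the sign changes were Slc35d2 (-0.056) and Slc4a8 (-0.37) in the knockout with 2 Foxp3 UMIs, Slc16a10 in Foxp3-positive nuclei without high-UMI nuclei (-0.16), and Slc50a1 in Foxp3-positive nuclei thinned (0.30) and without high-UMI nuclei (0.0015). The cause was not tested. No paired analysis was possible because each genotype is 1 library, and for the same reason no library could be left out. Depth limits low members: 142 of 173 had at least 100 UMIs in the classes and entered the counts.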
